A study of Mus musculus with 23 samples.

Results

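The genes described are 10 purinergic receptors and ectoenzymes, the surface proteins with which brain macrophages sense extracellular nucleotides and convert them to adenosine. They were chosen by symbol (P2ry12, P2ry13, P2ry6, P2ry14, P2rx4, P2rx7, Entpd1, Nt5e, Adora2a and Adora3), and all 10 were among the 33280 genes of the count table. RNA had been sequenced from sorted macrophages of Ccr2creERT2/+ R26tdT/tdT mice, in which tamoxifen (2 mg per day) turns on the red protein tdTomato (tdT) in cells with an active Ccr2 gene, so that monocytes and their progeny carry the mark. All mice received tamoxifen and, 8 weeks after treatment, a stroke induced by injecting thrombin into the middle cerebral artery, and tissue was taken 1 day after it from coronal slices without choroid plexus. The 5 groups were microglia (MG; CD45int CD11b+ CD206-) of vehicle-treated mice (MG CTL, n = 5) and of mice given 200 mg/kg BLZ945, a CSF-1 receptor inhibitor that depletes brain macrophages, for 7 days (MG BLZ945, n = 5), and subdural CNS-associated macrophages (sdCAMs; CD45int CD11b+ CD206int-high) without tdT from the same mice (tdT- CTL, n = 5, and tdT- BLZ945, n = 5) or with it (tdT+ BLZ945, n = 3). There was no tdT+ CTL group and no group without stroke, and the Cre was carried on 1 Ccr2 allele in every mouse. Since Cre acts only while Ccr2 is active and tamoxifen is present, tdT- sdCAMs can include unmarked progeny of monocytes. By the study's methods the sort also removed cells with Ly6C, Ly6G or CD11c on their surface, markers of monocytes, neutrophils and dendritic cells. By their library names, CTL libraries held 1 animal each and BLZ945 libraries 2, except those titled F2, whose names give 1. The study's methods state that each BLZ945 replicate pooled cells of 2 mice. The labels give no age, while the study's methods put the first gavage at an age of 10 ± 3 weeks.

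Damaged cells release ATP, ADP, UDP and UDP-sugars. P2Y receptors are G protein-coupled receptors for these nucleotides, and P2X receptors are ion channels that ATP opens. The ectoenzyme CD39 (Entpd1) trims ATP and ADP to AMP, and CD73 (Nt5e) turns AMP into adenosine, which acts on its own receptors. In microglia, P2RY12 steers processes towards sites of injury, and its gene is a usual marker of resting microglia.

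The libraries held 9433960 to 13276081 counts. Levels are given in CPM, the counts of a gene scaled to the library total after TMM factors over the 23 libraries were applied to the totals. At this depth 3 counts, taken as the floor, were worth 0.230 to 0.331 CPM, a limit that covers counting error only. The sorted populations carried their own markers. The 5 MG markers (Tmem119, Siglech, Sall1, Sparc and Gpr34) summed to 7681 to 12719 CPM in MG libraries and to 477 to 1245 CPM in sdCAM libraries, and the 6 sdCAM markers (Mrc1, whose product CD206 was in the gate, Pf4, Lyve1, Cd163, Ms4a7 and Clec12a) to 11.5 to 48.2 CPM in MG and 8559 to 14446 CPM in sdCAMs. The tdT- BLZ945 library F1 stood apart in blood cell markers, with 215 CPM over 4 monocyte markers against a group median of 22.7 CPM and 74.1 CPM over 5 neutrophil markers against 0.757 CPM. The neutrophil sum of F1 was Retnlg alone, a gene with no counts in the other tdT- BLZ945 libraries. The library names of M1 and F2 of the BLZ945 mice share an animal number, but Xist lay between 106 and 290 CPM in the 14 libraries titled F and between 0 and 2.20 CPM in the 9 titled M.

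P2ry12, P2ry13 and P2ry14 lie on the reverse strand within Med12l on chromosome 3, and P2rx7 and P2rx4 are neighbours on the forward strand of chromosome 5, in GENCODE M21. Their starts are shown because near neighbours of one family went different ways between the populations: P2ry12 and P2ry13 down and P2ry14 up from MG to sdCAMs, and P2rx7 and P2rx4 together in tdT- but not in tdT+ sdCAMs. The RefSeq table held 300-base windows (250 bases before the start and 50 after it, GRCm38.p6) for 8 of the 10 genes. Capitals mark the core of the PU.1 motif (GAGGAA), the AP-1 motif (TGANTCA) and the MEF2 motif on either strand.
P2ry12 (chr3:59262936-59263235, reverse strand): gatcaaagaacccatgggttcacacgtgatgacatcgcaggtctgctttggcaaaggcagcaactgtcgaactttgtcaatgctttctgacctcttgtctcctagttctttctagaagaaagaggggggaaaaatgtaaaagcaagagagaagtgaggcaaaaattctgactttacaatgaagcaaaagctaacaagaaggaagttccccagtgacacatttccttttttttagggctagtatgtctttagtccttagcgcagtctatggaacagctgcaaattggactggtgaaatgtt
P2ry13 (chr3:59210833-59211132, reverse strand): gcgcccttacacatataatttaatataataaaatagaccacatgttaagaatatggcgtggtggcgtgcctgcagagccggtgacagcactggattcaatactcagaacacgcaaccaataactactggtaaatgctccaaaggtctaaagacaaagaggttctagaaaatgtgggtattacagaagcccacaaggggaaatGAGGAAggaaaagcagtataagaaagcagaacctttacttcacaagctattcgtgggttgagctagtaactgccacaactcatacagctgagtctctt
P2ry14 (chr3:59153443-59153742, reverse strand): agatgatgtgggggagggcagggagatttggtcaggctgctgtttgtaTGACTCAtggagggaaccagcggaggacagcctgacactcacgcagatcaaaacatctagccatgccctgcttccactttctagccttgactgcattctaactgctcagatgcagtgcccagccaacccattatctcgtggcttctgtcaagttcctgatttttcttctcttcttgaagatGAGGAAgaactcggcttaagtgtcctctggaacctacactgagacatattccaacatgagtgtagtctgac
P2rx7 (chr5:122643677-122643976, forward strand): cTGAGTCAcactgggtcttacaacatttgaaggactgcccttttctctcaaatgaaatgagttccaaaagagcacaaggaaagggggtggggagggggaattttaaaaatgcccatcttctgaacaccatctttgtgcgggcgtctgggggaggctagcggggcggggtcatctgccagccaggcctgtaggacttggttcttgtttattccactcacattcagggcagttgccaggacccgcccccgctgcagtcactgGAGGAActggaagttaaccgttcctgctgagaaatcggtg
P2rx4 (chr5:122707294-122707593, forward strand): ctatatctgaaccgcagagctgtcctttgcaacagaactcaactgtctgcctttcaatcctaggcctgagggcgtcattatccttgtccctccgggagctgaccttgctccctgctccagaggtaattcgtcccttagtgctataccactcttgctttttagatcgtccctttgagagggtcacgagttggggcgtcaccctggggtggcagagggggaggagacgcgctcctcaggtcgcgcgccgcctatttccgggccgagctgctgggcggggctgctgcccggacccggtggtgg
Adora3 (chr3:105904171-105904470, forward strand): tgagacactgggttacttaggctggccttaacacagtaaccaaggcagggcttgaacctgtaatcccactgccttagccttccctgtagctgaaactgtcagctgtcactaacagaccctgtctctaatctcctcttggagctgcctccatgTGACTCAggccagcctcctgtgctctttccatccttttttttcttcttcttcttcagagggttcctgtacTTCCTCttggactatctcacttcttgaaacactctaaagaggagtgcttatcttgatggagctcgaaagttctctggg
The windows of P2ry12 and P2rx4 held no match. Those of P2ry14, P2rx7 and Adora3 each held 1 PU.1 core and 1 AP-1 match, and that of P2ry13 held 1 PU.1 core. Among all 32851 windows, 28.3% held a PU.1 core, 7.81% an AP-1 match and 3.69% a MEF2 match, and the matches do not overlap each other in the windows shown. P2ry14, P2rx7 and Entpd1 have further windows in the table. Of those of P2ry14, the windows from 59130713 and 59131069 held a PU.1 core and no AP-1 match, and that from 59131279 held both. The further P2rx7 window, from 122650133, held a PU.1 core and no AP-1 match. A match describes letters only.

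The first question was how the receptors and enzymes differ between MG and sdCAMs. In vehicle-treated mice, 8 of the 10 genes passed the filter on low counts, and 7 of them differed between tdT- CTL and MG CTL (edgeR quasi-likelihood test, Benjamini-Hochberg adjusted p under 0.05), 3 higher and 4 lower in sdCAMs, against 25.6% of the 12697 genes tested. The ADP receptors P2ry12 and P2ry13, the ectonucleotidase Entpd1 and the adenosine receptor Adora3 were lower in sdCAMs. The ATP-gated channels P2rx4 and P2rx7 and the UDP-glucose receptor P2ry14 were higher, and the UDP receptor P2ry6 did not pass the test. The median log2 fold change over the 8 genes was -0.39, beside -0.01 over all genes tested. These are bulk samples, in which fewer cells that express a gene and less of its RNA per cell cannot be told apart.

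**Figure D1:**
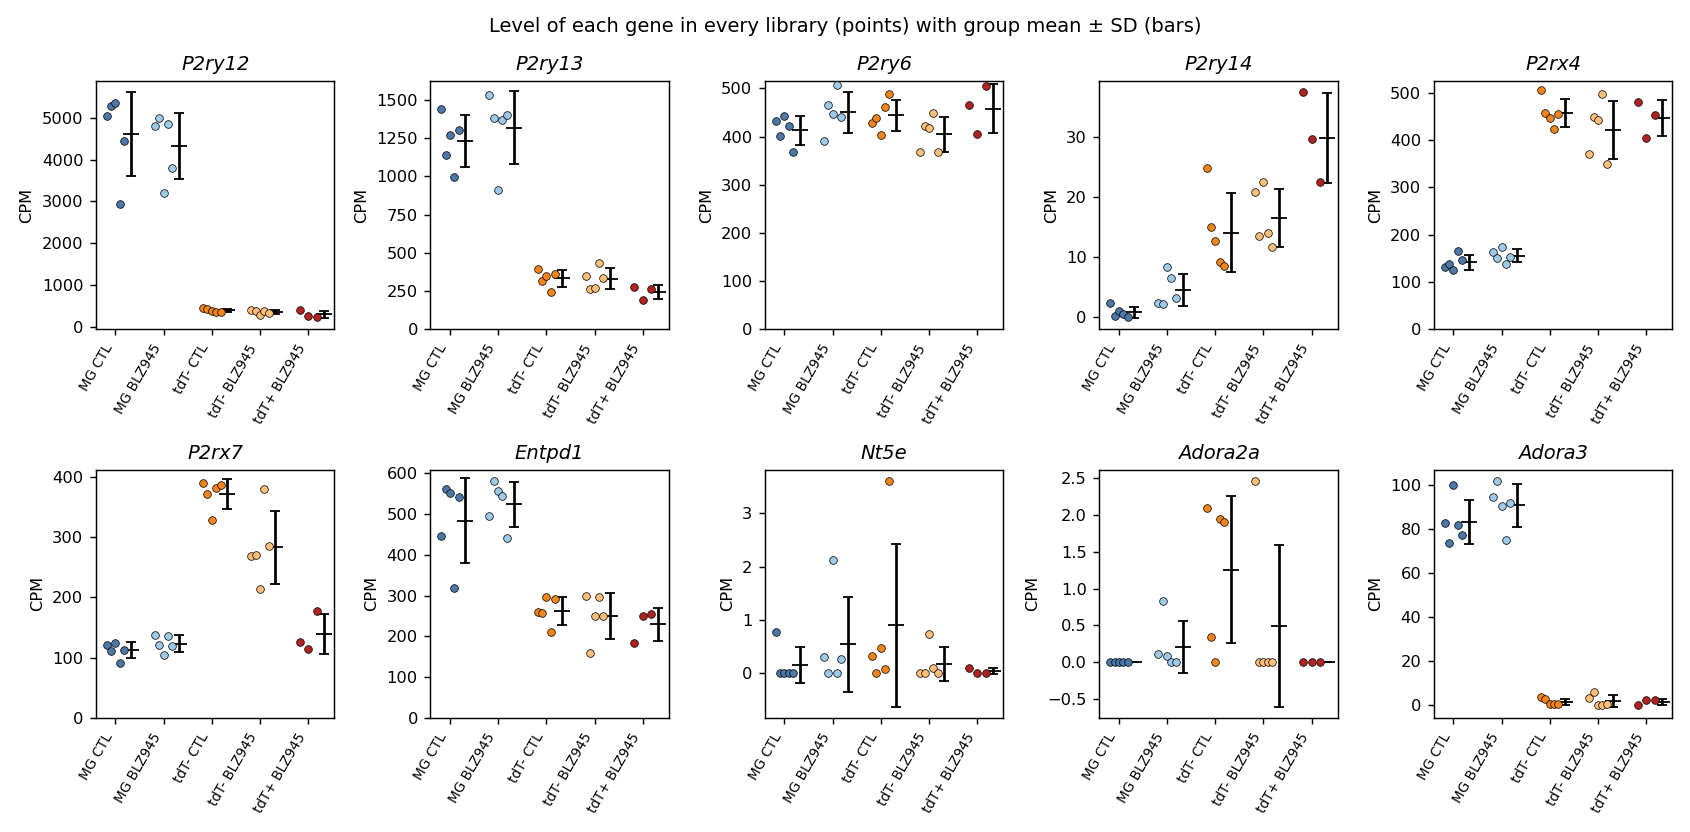
Level of each of the 10 genes in CPM (vertical axes, linear, different scale in each panel) in every library of the 5 groups (points), with the group mean ± SD (bars). P2ry12, P2ry13, Entpd1 and Adora3 are highest in MG, P2rx4 is above 349 CPM in every sdCAM library and below 175 CPM in every MG library, and P2rx7 is at or above 213 CPM in the tdT- sdCAM libraries and at or below 177 CPM in all others.

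P2ry12 was lower in every sdCAM group than in MG. In MG CTL it stood at 5034 CPM in M1, 5279 CPM in F1, 5351 CPM in F2, 2928 CPM in M2 and 4452 CPM in F3, and in MG BLZ945 at 4814 CPM in F1, 5001 CPM in F2, 3203 CPM in F3, 4861 CPM in M1 and 3792 CPM in M2. The sdCAM libraries ranged from 352 to 441 CPM in the tdT- CTL group, from 282.9 to 396 CPM in tdT- BLZ945 and from 240 to 393 CPM in tdT+ BLZ945. Every sdCAM library thus lay below every MG library, and the lowest MG values, those of M2 CTL and F3 BLZ945, were still 2928 and 3203 CPM. P2ry12 was 11.9-fold lower in tdT- CTL than in MG CTL (log2 fold change -3.57, SE 0.17, edgeR adjusted p = 1.29e-12), 12.4-fold lower in tdT- BLZ945 than in MG BLZ945 (edgeR adjusted p = 7.74e-13) and 14.6-fold lower in tdT+ BLZ945 than in MG BLZ945 (edgeR adjusted p = 1.64e-08).

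P2ry13, a second ADP receptor, kept more of its MG level. Group means were 1231 ± 168 CPM in MG CTL, 1320 ± 236 CPM in MG BLZ945, 332 ± 57.7 CPM for tdT- CTL, 331 ± 68.9 CPM for tdT- BLZ945 (SD, n = 5 each) and 242 ± 46.0 CPM in tdT+ BLZ945 (SD, n = 3). The lowest MG library, F3 of MG BLZ945, held 914 CPM and the highest sdCAM library, M1 of tdT- BLZ945, 435 CPM, so the populations did not overlap. The log2 fold change was -1.89 (SE 0.16, edgeR adjusted p = 9.55e-09) for tdT- CTL against MG CTL, -1.98 (SE 0.17, edgeR adjusted p = 4.98e-09) for tdT- BLZ945 against MG BLZ945 and -2.44 (SE 0.22, edgeR adjusted p = 1.49e-06) for tdT+ BLZ945 against MG BLZ945. Because P2ry12 and P2ry13 fell by different amounts, the P2ry12 reads per P2ry13 read, a ratio within each library that needs no scaling, were 3.74 ± 0.68 in MG CTL and 3.30 ± 0.38 in MG BLZ945 but 1.20 ± 0.19, 1.07 ± 0.21 and 1.22 ± 0.28 in the tdT- CTL, tdT- BLZ945 and tdT+ BLZ945 groups (SD).

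Adora3, the Gi-coupled adenosine receptor A3, was low in every sdCAM library. In MG CTL it was at 82.9 CPM in M1, 73.7 CPM in F1, 100.2 CPM in F2, 81.9 CPM in M2 and 77.6 CPM in F3, and in MG BLZ945 it ranged from 75.0 to 102 CPM. The 13 sdCAM libraries held 0 to 5.84 CPM, with 0 counts in F3 and M1 of tdT- BLZ945 and in F2 of tdT+ BLZ945. Adora3 was 54.3-fold lower in tdT- CTL than in MG CTL (log2 fold change -5.76, SE 0.78, edgeR adjusted p = 6.13e-06), and the log2 fold change was -5.64 (SE 0.78, edgeR adjusted p = 7.75e-06) for tdT- BLZ945 and -5.88 (SE 1.32, edgeR adjusted p = 0.00561) for tdT+ BLZ945 against MG BLZ945. With at most 54 counts in any sdCAM library, the size of the fold rested on single libraries: the log2 fold change was -6.37 for tdT- CTL without M1 of that group, and -6.80 without F2 of tdT- BLZ945 and -6.42 with the replicate block for tdT- BLZ945. By GENCODE M21, 20.9% of its exon bases also belong to Tmigd3 on the same strand, a gene with a mean of 0.637 CPM in MG CTL.

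Entpd1, which encodes CD39, fell by a smaller amount. It stood at 446 CPM in M1, 560 CPM in F1, 552 CPM in F2, 318 CPM in M2 and 541 CPM in F3 of MG CTL, and at 259, 257.4, 297, 211 and 291 CPM in the tdT- CTL libraries of the same animals. The lowest MG value, that of M2, was close to the highest sdCAM value without overlapping it. The log2 fold change was -0.88 (SE 0.17, edgeR adjusted p = 0.000355) in CTL, -1.06 (SE 0.17, edgeR adjusted p = 4.71e-05) in tdT- BLZ945 and -1.18 (SE 0.21, edgeR adjusted p = 0.000875) in tdT+ BLZ945, the last 2 against MG BLZ945. Nt5e, which encodes the next enzyme of the chain, was at or under 3.61 CPM in every library and passed the filter in none of the 8 comparisons.

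P2rx4, an ATP-gated cation channel, went the other way. MG libraries held 125 to 164 CPM in CTL and 138 to 175 CPM in BLZ945, whereas sdCAM libraries held 422 to 505 CPM (tdT- CTL), 349 to 498 CPM (tdT- BLZ945) and 405 to 480 CPM (tdT+ BLZ945). The sdCAM groups overlapped each other and none overlapped MG. P2rx4 was 3.23-fold higher in tdT- CTL than in MG CTL (log2 fold change 1.69, SE 0.11, edgeR adjusted p = 1.32e-10), 2.73-fold higher in tdT- BLZ945 (edgeR adjusted p = 1.54e-09) and 2.89-fold higher in tdT+ BLZ945 (edgeR adjusted p = 1.49e-06) than in MG BLZ945.

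P2rx7, the channel that opens at high ATP and is known for setting off the inflammasome, was higher in tdT- sdCAMs than in MG, and its level in tdT+ sdCAMs was near that of MG. In MG it ranged from 90.7 to 124 CPM in CTL and from 104 to 137 CPM in BLZ945. In tdT- CTL it stood at 390 CPM in M1, 371 CPM in F1, 329 CPM in F2, 381 CPM in M2 and 386 CPM in F3. In tdT- BLZ945 it was at 268 CPM in F1, 270 CPM in F2, 213 CPM in F3, 380 CPM in M1 and 285 CPM in M2. The tdT+ BLZ945 libraries held 126 CPM in F2, 114 CPM in F3 and 177 CPM in M2. Each of these lay below every tdT- library, and F2 and F3 lay within the MG BLZ945 range. The log2 fold change against MG was 1.72 (SE 0.13, edgeR adjusted p = 1.77e-09) for tdT- CTL, 1.21 (SE 0.13, edgeR adjusted p = 3.40e-07) for tdT- BLZ945 and 0.18 (SE 0.19, 95% interval -0.23 to 0.59, edgeR adjusted p = 0.584) for tdT+ BLZ945.

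P2ry14, the receptor for UDP-glucose, had low levels throughout. MG CTL libraries held 2.29 CPM in M1, 0.0911 CPM in F1, 0.957 CPM in F2, 0.383 CPM in M2 and 0 CPM in F3, and MG BLZ945 libraries 2.32 CPM in F1, 2.17 CPM in F2, 8.23 CPM in F3, 6.54 CPM in M1 and 3.14 CPM in M2. In sdCAMs it ranged from 8.52 to 24.9 CPM in tdT- CTL and from 11.6 to 22.6 CPM in tdT- BLZ945, and it stood at 37.5 CPM in F2, 29.7 CPM in F3 and 22.5 CPM in M2 of tdT+ BLZ945. No sdCAM group overlapped the MG group of the same treatment. The log2 fold change was 4.21 (SE 0.75, edgeR adjusted p = 0.000169) in CTL, 1.89 (SE 0.66, edgeR adjusted p = 0.0332) for tdT- BLZ945 and 2.74 (SE 0.49, edgeR adjusted p = 0.00115) for tdT+ BLZ945 against MG BLZ945. In CTL the log2 fold change was 5.24 without M1 of MG CTL, the MG CTL library with the most P2ry14 counts, and 4.88 with the replicate block, and the call was kept in both. The call for tdT- BLZ945 was lost without F1 of that group (edgeR adjusted p = 0.0574), without F3 of it (0.0656), or without F1 (0.0811), F2 (0.0793) or M2 (0.0786) of MG BLZ945, with log2 fold changes of 1.79, 1.74, 1.72, 1.71 and 1.78 in the same order.

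P2ry6, the UDP receptor linked to phagocytosis, had overlapping ranges in the 5 groups. Its means were 413 ± 30.1 CPM in MG CTL, 450 ± 41.7 CPM in MG BLZ945, 444 ± 32.5 CPM for tdT- CTL, 405 ± 36.2 CPM for tdT- BLZ945 (SD, n = 5 each) and 458 ± 50.04 CPM in tdT+ BLZ945 (SD, n = 3). The log2 fold change against MG was 0.10 (95% interval -0.10 to 0.30) for tdT- CTL, -0.14 (95% interval -0.34 to 0.06) for tdT- BLZ945 and 0.04 (95% interval -0.25 to 0.32) for tdT+ BLZ945, and none of them passed the test (edgeR adjusted p = 0.537, 0.282 and 0.897). Adora2a, a Gs-coupled adenosine receptor gene, had 0 counts in all 5 MG CTL and all 3 tdT+ BLZ945 libraries. In tdT- CTL it stood at 2.10 CPM in M1, 0.337 CPM in F1, 0 CPM in F2, 1.95 CPM in M2 and 1.90 CPM in F3, and in tdT- BLZ945 it had 0 counts in 4 libraries and 2.46 CPM in F1, the library with the blood cell markers. It did not pass the filter on low counts for either tdT- group against MG, so the 8 tested genes leave it out. For tdT- CTL against MG CTL it was called higher in tdT- CTL wherever an alternative tested it: by edgeR with the study's filter (edgeR adjusted p = 0.0326, where 18.2% of 17911 genes were called) and in the model of all 23 libraries (edgeR adjusted p = 0.0290, where 23% of 13790 genes were called), by DESeq2 (DESeq2 adjusted p = 0.0279, where 25.6% of 15517 genes were called), and in the 7 of 10 fits without a single library in which it passed the filter (edgeR adjusted p of 0.0193 to 0.0481). It did not pass the filter without M1, M2 or F3 of tdT- CTL, with RLE size factors or with the replicate block. Every fit that tested it kept M1, M2 and F3, which held 27, 24 and 19 counts of it. Whether the calls depend on these libraries was therefore not tested.

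**Figure D2:**
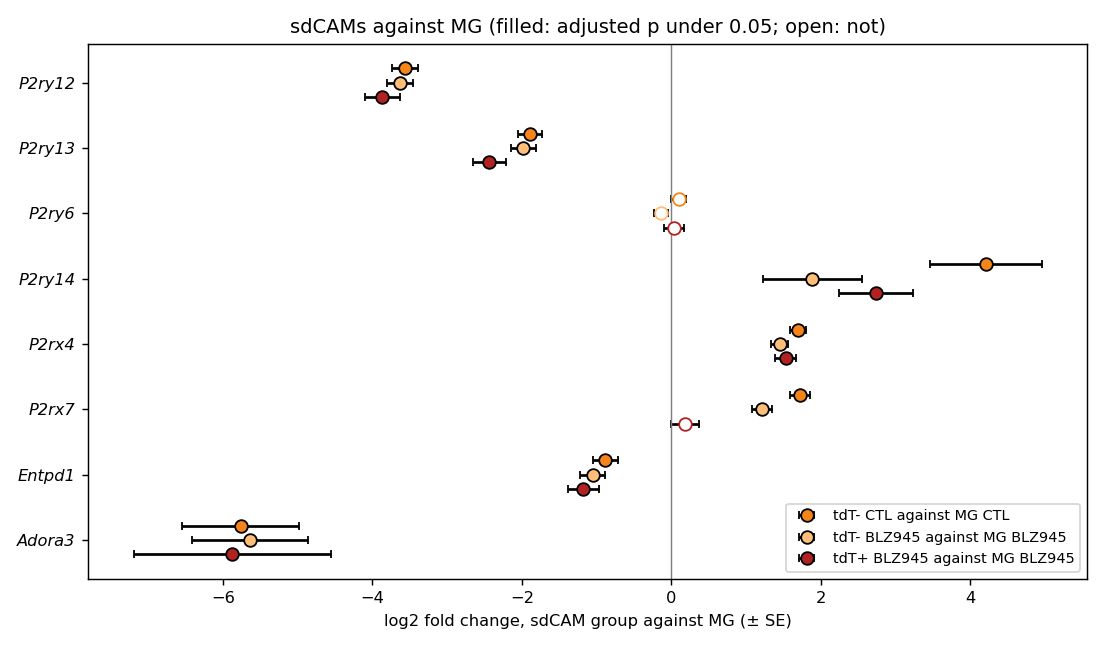
Log2 fold change (horizontal axis) of the 8 tested genes between each sdCAM group and MG of the same treatment, with SE bars, filled where the edgeR adjusted p was under 0.05. P2ry12, P2ry13, Entpd1 and Adora3 lie left of 0 and P2ry14 and P2rx4 right of 0 in all 3 comparisons, while P2rx7 is at 0.18 and open for tdT+ BLZ945.

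In the BLZ945 mice, the test called 7 of the 8 tested genes for tdT- BLZ945 against MG BLZ945, 3 higher and 4 lower, where 32.4% of 12697 genes were called, and 6 of 8 for tdT+ BLZ945 against MG BLZ945, 2 higher and 4 lower, where 18.9% of 12868 genes were called. The genes not called were P2ry6 in the first and P2ry6 and P2rx7 in the second. Both comparisons use the same MG BLZ945 libraries. The median log2 fold changes were -0.60 and -0.57, beside -0.02 and -0.01 over all genes tested.

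The residual levels in sdCAMs can be set beside those of MG marker genes. As a percent of the MG mean of the same treatment, Adora3 stood at 1.81% for tdT- CTL, 2.02% for tdT- BLZ945 and 1.68% for the tdT+ group, and P2ry12 at 8.47%, 8.00% and 6.80% in the same order. P2ry13 stood at 27.0%, 25.1% and 18.4%, and Entpd1 at 54.4%, 47.8% and 43.8%. Among the MG markers, Tmem119 lay between 0.937% and 2.92%, Sall1 between 0.772% and 3.35%, Sparc between 1.61% and 2.81%, Gpr34, itself a lysophosphatidylserine receptor gene, between 15.04% and 19.3%, and Siglech between 11.3% and 26.5%. Entpd1 thus kept a larger share of its MG level than the 5 markers in every sdCAM group. P2ry13 lay above all 5 in tdT- CTL, below Siglech (26.5%) in tdT- BLZ945, and below Gpr34 (19.3%) and Siglech (22.3%) in tdT+ BLZ945. The part of MG RNA in the sdCAM values was not tested further.

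**Figure D3:**
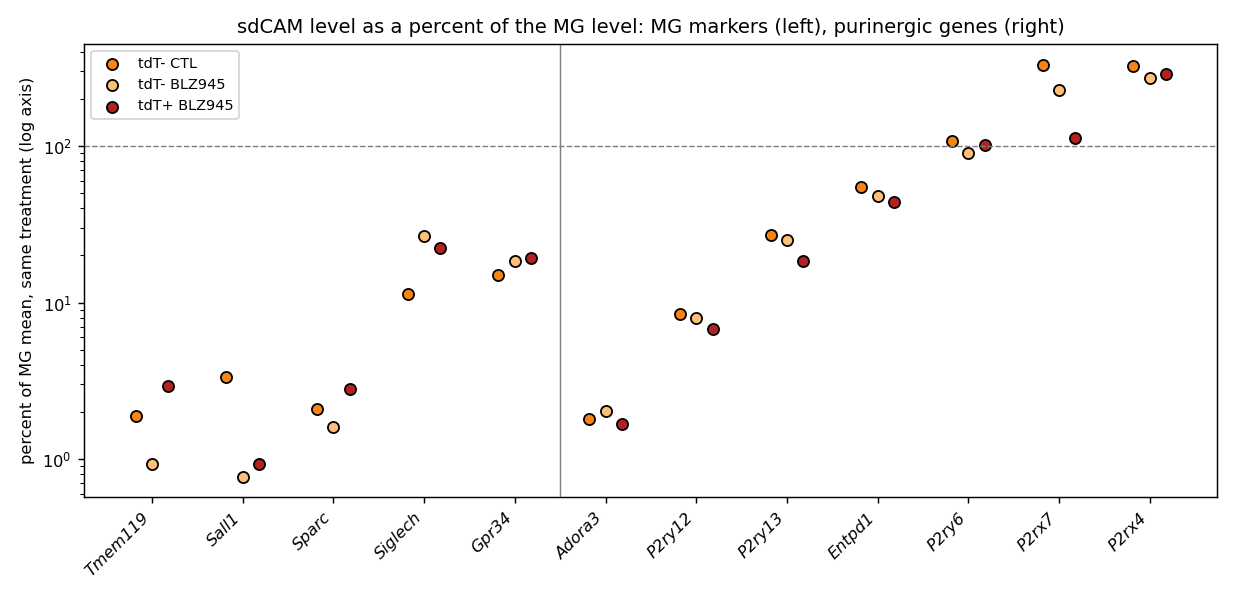
Mean CPM in each sdCAM group as a percent of the MG mean of the same treatment (vertical log axis; dashed line at the MG level) for 5 MG markers on the left and 7 of the purinergic genes on the right. Adora3 sits with Tmem119, Sall1 and Sparc near 2%, P2ry12 lies at 6.80% to 8.47%, and P2rx4 above the MG level in all 3 groups.

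Markers of other cell types also moved between the populations. The summed level of 3 neuron markers was 4.18 to 12.0 CPM in MG and 36.001 to 108 CPM in sdCAMs, with none of the markers at 0 in a whole group, that of 3 fibroblast markers 0.0835 to 2.12 CPM and 15.1 to 47.9 CPM, and that of 3 astrocyte markers 1.61 to 5.35 CPM and 8.19 to 47.8 CPM. Endothelial and oligodendrocyte marker sums reached at most 44.9 and 245 CPM in sdCAMs and 12.3 and 67.9 CPM in MG. The dendritic cell sum reached 79.8 CPM in tdT- BLZ945, in F1, against a group median of 19.7 CPM, and at most 27.8 CPM in the other sdCAM groups and 9.54 CPM in MG. The T or NK cell and B cell sums stayed at or under 7.82 and 2.28 CPM in every library. The platelet list did not move as a whole: Ppbp averaged 66.7 CPM in tdT- CTL and 0.210 CPM in MG CTL, whereas Gp9 averaged 0.171 and 22.8 CPM. The monocyte sum was 3.73 to 15.7 CPM in MG and 0 to 100.04 CPM in the 12 sdCAM libraries other than F1 of tdT- BLZ945. Ly6g, a neutrophil gene, was at 0 in 4 of the 5 groups and Xcr1, a dendritic cell gene, in all sdCAM groups. The part of these cell types in the differences of P2rx4, P2rx7 and P2ry14 was not tested.

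Per kilobase of exon (GENCODE M21 lengths, which may differ from those of the annotation used for counting), the order of the genes differed between the populations. In MG CTL, P2ry12 led with 1810 ± 394 CPM per kb, ahead of P2ry13 with 487 ± 66.5, P2ry6 with 143 ± 10.4 and Entpd1 with 86.7 ± 18.5 CPM per kb (SD, n = 5), and the ranges of Adora3, P2rx4 and P2rx7, at means of 22.3, 20.1 and 18.8 CPM per kb, overlapped. In tdT- CTL, the ranges of P2ry6 (154 ± 11.3 CPM per kb), P2ry12 (153 ± 15.4) and P2ry13 (131 ± 22.8) overlapped, followed by P2rx4 with 65.1 ± 4.29, P2rx7 with 62.2 ± 4.15 and Entpd1 with 47.2 ± 6.15 CPM per kb. In tdT+ BLZ945, P2rx7 at 23.3 ± 5.56 CPM per kb lay below Entpd1 at 41.1 ± 7.27 CPM per kb (SD, n = 3), with no overlap of their ranges.

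The second question was whether MG after depletion and repopulation differ from MG of vehicle-treated mice. The edgeR test called 0 of the 8 tested genes for MG BLZ945 against MG CTL, where 0.408% of 11264 genes were called. At an unadjusted p under 0.05 there were 1492 of all genes and 1 of the 8. That gene was P2ry14, higher in MG BLZ945 by 2.56 on the log2 scale (SE 0.78, edgeR adjusted p = 0.171). The groups overlapped through M1 of MG CTL at 2.29 CPM and F2 of MG BLZ945 at 2.17 CPM. DESeq2 called it (DESeq2 adjusted p = 0.0247), and over all alternatives with edgeR the adjusted p lay between 0.107 and 0.318, with a log2 fold change of 3.59 without M1 of MG CTL. DESeq2 called 2.06% of 13265 genes here. The sdCAM marker sum was 11.5 to 35.0 CPM in MG BLZ945 and 20.4 to 48.2 CPM in MG CTL, and the part of sdCAM RNA in the P2ry14 values was not tested. For the other 7 genes the log2 fold change lay between -0.11 (P2ry12, 95% interval -0.44 to 0.23) and 0.12 (P2rx4, 95% interval -0.10 to 0.34).

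For sdCAMs, tdT- BLZ945 against tdT- CTL gave 0 called genes of 9 tested with edgeR, 1 at an unadjusted p under 0.05 and 0 with DESeq2, where edgeR called 0% of 13076 genes, with 697 at such a p, and DESeq2 0.531% of 13558. The gene with the low p was P2rx7, at 283.2 ± 60.5 CPM in tdT- BLZ945 and 371 ± 24.8 CPM in tdT- CTL (SD, n = 5 each; log2 fold change -0.37, SE 0.16, edgeR adjusted p = 0.870), and M1 of tdT- BLZ945 at 380 CPM lay inside the CTL range. An interaction term compared the effect of BLZ945 on tdT- sdCAMs with its effect on MG. The edgeR test called 0 of 8 genes, with 2 at an unadjusted p under 0.05 and 0 called by DESeq2, where edgeR called 0.0394% of 12697 genes, with 1104 at such a p, and DESeq2 0.748% of 14712. The 2 genes were P2rx7 (difference of log2 fold changes -0.51, SE 0.19, edgeR adjusted p = 0.406) and P2ry14 (-2.33, SE 0.94, edgeR adjusted p = 0.460, and -3.36 without M1 of MG CTL).

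The third question was how tdT+ sdCAMs, marked through Ccr2, differ from unmarked ones. P2rx7 was the 1 gene of 9 tested that edgeR called for tdT+ BLZ945 against tdT- BLZ945, lower in tdT+, where 0.206% of 13076 genes were called. It was lower by 1.05 on the log2 scale, a 2.06-fold difference (SE 0.20, edgeR adjusted p = 0.0409). In each of the 3 sets of animals with both libraries, the tdT+ value was below the tdT- value: 126 against 270 CPM in F2, 114 against 213 CPM in F3 and 177 against 285 CPM in M2. With the animals as a replicate block the log2 fold change was -0.92 (SE 0.16) and the edgeR adjusted p was 0.387, in a fit that called 0.0459% of all genes. Without single libraries the adjusted p rose over the threshold in 6 of 8 cases, to 0.0619, 0.0505, 0.0939 and 0.0757 without F1, F2, M1 and M2 of tdT- BLZ945 and to 0.301 and 0.262 without F2 and F3 of tdT+ BLZ945, while the log2 fold change stayed between -1.25 and -0.91.

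Against tdT- CTL, whose libraries come from other animals, edgeR also called 1 of 9 genes for tdT+ BLZ945, again P2rx7, where 0.283% of 13076 genes were called. It was lower by 1.42 on the log2 scale, a 2.67-fold difference (SE 0.20, edgeR adjusted p = 0.00289), and all 13 alternatives kept the call, with adjusted p-values of 2.76e-09 to 0.0308. This comparison and the preceding one share the tdT+ libraries. P2rx4, the neighbouring channel gene, did not follow: its log2 fold change was 0.06 (95% interval -0.24 to 0.36) against tdT- BLZ945 and -0.04 (95% interval -0.34 to 0.26) against tdT- CTL. P2rx7 reads per P2rx4 read were accordingly 0.809 ± 0.171 in MG CTL, 0.802 ± 0.138 in MG BLZ945, 0.814 ± 0.0655 in tdT- CTL and 0.678 ± 0.135 in tdT- BLZ945 (SD, n = 5 each) and 0.311 ± 0.0686 in tdT+ BLZ945 (SD, n = 3). The highest tdT+ ratio, 0.390 in M2, lay below the lowest of the other 20 libraries, 0.481 in F3 of tdT- BLZ945. By GENCODE M21, 1.99% of the P2rx7 exon bases are shared with the microRNA gene Mir8115.

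**Figure D4:**
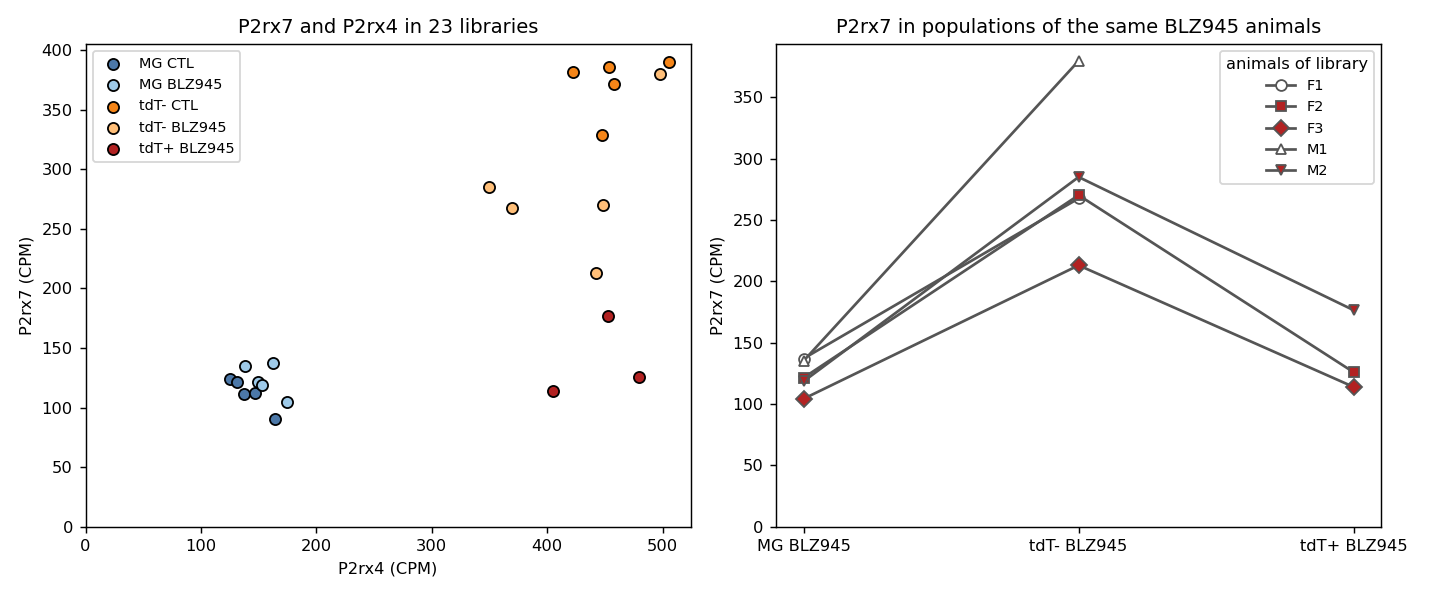
Left, P2rx7 against P2rx4 in CPM in the 23 libraries (points, coloured by group). Right, P2rx7 in CPM in the populations sorted from the same BLZ945 animals (lines join libraries of the same animals; open symbols mark animals with no tdT+ library). The tdT+ libraries have P2rx4 of 405 to 480 CPM, as in tdT- sdCAMs, with P2rx7 of 114 to 177 CPM, and all 3 lines that reach tdT+ go down from tdT-.

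The other genes did not pass the test in either tdT+ comparison. With P2rx7 included, 2 of 9 genes were at an unadjusted p under 0.05 against tdT- BLZ945 and 5 of 9 against tdT- CTL. Over all 13076 genes tested, 903 and 973 were, in the same order. P2ry14 was at 29.9 ± 7.52 CPM in tdT+ BLZ945 and 16.5 ± 4.89 CPM in tdT- BLZ945 (0.83 higher on the log2 scale, SE 0.42, edgeR adjusted p = 0.749), and M2 of tdT+ at 22.5 CPM lay inside the tdT- range. Against the 14.03 ± 6.61 CPM of tdT- CTL it was 1.08 higher on the log2 scale (SE 0.42, edgeR adjusted p = 0.580), and M2 again lay inside the range. P2ry13 had a log2 fold change of -0.47 against tdT- BLZ945 (SE 0.21, edgeR adjusted p = 0.681) and of -0.46 against tdT- CTL (SE 0.21, edgeR adjusted p = 0.632). P2ry12 had a log2 fold change of -0.41 against tdT- CTL (SE 0.18, edgeR adjusted p = 0.622). Adora2a, the remaining gene at an unadjusted p under 0.05 against tdT- CTL, had no counts in the tdT+ libraries and a mean of 1.26 CPM in tdT- CTL. Entpd1 and P2ry6 lay within 0.20 of 0 on the log2 scale in both comparisons.

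The rest of the pathway was read from 36 further genes, listed by symbol under nucleotide sensing, breakdown, transport and release. Of 23 tested for tdT- CTL against MG CTL, 9 were higher and 3 lower in sdCAMs, where 25.6% of all genes tested were called in either direction. The median log2 fold change was 0.66, also with the 1 gene that had no counts in a group set to its bound, beside -0.01 over all genes tested. The 4 called genes with the lowest p were Cd38, Slc28a2, Entpd7 and Enpp1. Cd38, which encodes an ectoenzyme that consumes NAD, was at 1360 CPM in tdT- CTL and 1.52 CPM in MG CTL (log2 fold change 9.79, SE 0.56, edgeR adjusted p = 1.13e-11). Slc28a2, a sodium-coupled nucleoside transporter, stood at 18.2 CPM in tdT- CTL and 0.0493 CPM in MG CTL, the latter under the floor. Entpd7, an intracellular relative of Entpd1, rose by 1.49 (SE 0.27, edgeR adjusted p = 0.000206) and Enpp1, which splits ATP into AMP and pyrophosphate, by 1.74 (SE 0.33, edgeR adjusted p = 0.000413) on the log2 scale.

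By role, 4 of 7 tested nucleotide-hydrolysing enzymes and 2 of 4 genes of adenosine removal were higher in tdT- CTL and none lower. These are few genes, to be read against the 25.6% of all genes that were called. The called genes of adenosine removal were Ada, which deaminates adenosine, and Adk, which phosphorylates it. Among other genes with a P2Y or P2X symbol, which does not make each a nucleotide receptor, P2ry10b and P2rx1 were lower and P2rx6 was higher. Of the other adenosine receptors 0 of 2 were called. Of 6 release and transport genes, 2 were higher and 1 lower. In tdT- BLZ945 against MG BLZ945, 8 of 23 tested genes were higher and 3 lower (median log2 fold change 0.68), where 32.4% of all genes were called, led by Cd38 (1111 against 0.986 CPM), Slc28a2 (21.99 against 0.206 CPM), Slc29a1, a nucleoside transporter (log2 fold change 1.26, SE 0.17, edgeR adjusted p = 4.37e-06), and Adk (log2 fold change 1.81, SE 0.27, edgeR adjusted p = 2.06e-05). In tdT+ BLZ945 against MG BLZ945, 6 of 24 were higher and 2 lower (median 0.66), where 18.9% of all genes were called, led by Cd38 (911 CPM in tdT+), Slc28a2 (51.3 CPM), Slc29a1 (log2 fold change 1.16, SE 0.17, edgeR adjusted p = 0.000153) and Ada (log2 fold change 2.84, SE 0.54, edgeR adjusted p = 0.00165), and with the animals as a replicate block 5 of the 24 were called, where 15.1% of all genes were. In the 5 comparisons within MG, within sdCAMs and of the BLZ945 effects, edgeR called 0 of the 21 to 24 tested genes, with 1 to 5 at an unadjusted p under 0.05 (697 to 1492 of all genes tested), and DESeq2 called 2 for MG BLZ945 against MG CTL (2.06% of all genes), 1 for tdT+ BLZ945 against tdT- CTL (1.73% of all genes) and 0 in the others. Leaving out single libraries, edgeR called 1 for MG BLZ945 against MG CTL without M2 or without F3 of MG CTL, and 1 for tdT+ BLZ945 against tdT- CTL without F2 of tdT- CTL.

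Genes whose 5 group means ran most like those of a member were found by the root mean square difference of mean-centred profiles of log2(CPM + 1), among 5157 genes with an average log2 CPM of at least 5 and no predicted-gene symbol. This was done for the 4 members whose group means spanned at least 2 on that scale. Nearest to P2ry12 were Golm1 (0.16) and Cst7 (0.18), and nearest to P2ry13 were Bco2 (0.06), Fmnl3 (0.10) and Csf3r (0.12). Adora3 ran most like Mlph (0.11), Slco4a1 (0.15) and Ecscr (0.17), and P2ry14 like Ms4a4c (0.26), Axl (0.32) and Fxyd5 (0.39). These are descriptions over 5 group means.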

How the data were processed

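RNA of 23 libraries of FACS-sorted mouse brain macrophages was made into SMART-Seq libraries. Reads were aligned by the authors with STAR 2.7.11a and assigned to genes with featureCounts, and the deposited values are whole-number counts, not normalized. The genome build, strand setting and treatment of reads shared between genes were not clear, so genes are named by symbol and the only coordinates are those of RefSeq windows. Some marker genes are not reported here. Members and gene lists were chosen with earlier results of these data known.

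Groups came from sample titles. The quasi-likelihood test of edgeR 4.0.16 (R 4.3.3; TMM, filterByExpr, glmQLFit, glmQLFTest) was run in models of the populations compared: 20 libraries (tdT- against MG, and the interaction), 13 BLZ945 libraries (tdT+ against MG), 10 MG libraries and 13 sdCAM libraries. Benjamini-Hochberg adjustment covered every gene of a comparison, with calls under 0.05. SE is the log2 fold change over the root of F, and 95% intervals use the t distribution of the test. Fold changes are given where a group mean reached 3 CPM, a limit chosen after the values were seen. All 10 members are described, and of the pathway list the 4 called genes of lowest p in each comparison. DESeq2 1.42.0, RLE factors, the study's filter, a model of all 23 libraries, leaving out each library and a replicate block were the alternatives. The edgeR fit was also run on simulated data, with results not given here. Libraries of the same treatment and title number came from the same animals. Their deviations from the group means correlated at 0.0786 to 0.190 (MG and tdT- CTL), 0.0316 to 0.183 (MG and tdT- BLZ945), 0.0424 to 0.0933 (tdT- and tdT+) and 0.106 to 0.177 (MG and tdT+). No library was a duplicate, since chi-square was at least 16.5 per gene within groups.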

Additional observations from a re-analysis of the deposited data

Results flagged for a closer look

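A library far from the other 4 of its group was found in 7 of 39 groups of values, where chance gives about 1 in 20. P2ry13 in F3 of MG BLZ945 stood at 914 CPM (10766 counts), below the others of its group, and P2ry12 was also lowest there. The other 6 were single libraries with few counts of a gene near the floor. Nt5e was highest at 0.764 CPM (9 counts) in M1 of MG CTL, at 2.12 CPM (25 counts) in F3 of MG BLZ945, at 3.61 CPM (36 counts) in F3 of tdT- CTL and at 0.723 CPM (8 counts) in F3 of tdT- BLZ945. Adora2a was highest at 0.835 CPM (10 counts) in F2 of MG BLZ945 and at 2.46 CPM (23 counts) in F1 of tdT- BLZ945.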

How the results depend on the processing

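Of 314 alternative values of called genes, 302 kept direction and call and 12 lost the call, those of P2rx7 and P2ry14 given above. Of 612 of genes not called, 591 kept direction and stayed uncalled. DESeq2 called 1 gene for MG BLZ945 against MG CTL, P2ry14, where edgeR called 0, and over all genes DESeq2 called 2.06% and edgeR 0.408%. For tdT- CTL against MG CTL, 8 in place of 7 were called with DESeq2, the study's filter and the model of all libraries, and 7 to 8 without single libraries, with Adora2a, left out by the filter otherwise, as the added gene. Without single libraries 6 to 7 were called for tdT- BLZ945 against MG BLZ945, P2ry14 being the gene lost. For tdT+ against tdT- BLZ945, the replicate block called 0 genes and leaving out single libraries 0 to 1, and the cause was not tested. The replicate block changed no other count of called members.

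The 20 reversals lay near 0 on the log2 scale, and their cause was not tested. For tdT- BLZ945 against tdT- CTL, P2ry13 was at -0.011 with the study's filter and -0.0032 with the replicate block, and without single libraries at -0.11 to 0.081, with Entpd1 at -0.13 to 0.062. With the replicate block, Entpd1 was at 0.062 for tdT+ against tdT- BLZ945 and P2rx4 at 0.0033 for tdT+ BLZ945 against tdT- CTL. Without single libraries, P2ry6 (-0.058 to 0.11) and P2rx7 (-0.041 to 0.30) reversed for tdT+ against MG BLZ945, Entpd1 for MG BLZ945 against MG CTL (-0.018 to 0.16) and for tdT+ against tdT- BLZ945 (-0.26 to 0.016), P2ry6 (-0.038 to 0.12) and P2rx4 (-0.086 to 0.022) for tdT+ BLZ945 against tdT- CTL, and P2ry12 for the difference of BLZ945 effects (-0.16 to 0.061).

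Across treatments the title numbers mark different animals. Own-number correlations across treatments were 0.0032 to 0.206 for MG, -0.09 to 0.05 for tdT- and -0.06 to 0.02 for tdT+ with tdT- CTL, and 4 of 10, 4 of 10 and 0 of 8 libraries correlated best with their own number. With those numbers as a block, all-gene calls went from 46 to 89 for MG, 0 to 0 for tdT- and 37 to 36 for tdT+ against tdT- CTL. For the interaction the block was the animals, and calls went from 5 to 1. Low counts limited Nt5e and Adora2a, which passed the edgeR filter in 0 and 3 of the 8 comparisons.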
